A study of Rattus norvegicus with 252 samples.

Results

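The immediate early genes described here are 7 of the 32883 genes listed in the count table, chosen by Ensembl identifier: Fos (ENSRNOG00000008015), Egr1 (ENSRNOG00000019422), Arc (ENSRNOG00000043465), Nr4a1 (ENSRNOG00000007607), Junb (ENSRNOG00000042838), Dusp1 (ENSRNOG00000003977) and Egr2 (ENSRNOG00000000640). A gene was to be left out if its median correlation with the others fell under 0.3 in at least 2 tissues. All 7 were kept.

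RNA-seq libraries came from 4 brain tissues (striatum, cortex, cerebellum and hippocampus) of 60 Long Evans rats aged 2, 6 or 12 months, with 5 females and 5 males per genotype and age. One genotype was wild type (WT) and the other Q130, meaning heterozygous for a knock-in allele that models Huntington disease. Each animal gave 1 library per tissue, 240 study libraries in all, and animals of 2 and 6 months were sequenced in batch 1 and those of 12 months in batch 2. A further 12 libraries in batch 2 repeated the striatum of 2- and 6-month males.

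Immediate early genes are transcribed within minutes of a strong stimulus, without new protein synthesis, through transcription factors that are already present and that calcium and kinase signals switch on. In neurons their RNA rises after firing and falls again soon after, so a level in dissected tissue depends on what the animal met shortly before. Fos and Junb encode partners in the AP-1 transcription factor, Egr1 and Egr2 zinc finger transcription factors, Nr4a1 an orphan nuclear receptor, Dusp1 a phosphatase that switches off MAP kinases, and Arc a synaptic protein that acts in the removal of glutamate receptors. In bulk tissue a lower level can come from fewer cells of a type or from less RNA per cell, which cannot be told apart.

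RefSeq promoter sequences of the rat assembly GRCr8 were at hand for 5 of the 7 genes. The 250 bases before the start site are shown for 3 of them, whose levels varied together in striatum, cortex and hippocampus and whose windows differ in the motifs they hold. Capitals mark TGACG on either strand (written CGTCA on the other strand), the core of the site bound by CREB, and the CArG box, the site bound by serum response factor. The windows lie at chr7:134259888-134260137 (plus strand) for Nr4a1, chr10:17184603-17184852 (plus strand) for Dusp1 and chr20:21054442-21054691 (minus strand) for Egr2.
Nr4a1: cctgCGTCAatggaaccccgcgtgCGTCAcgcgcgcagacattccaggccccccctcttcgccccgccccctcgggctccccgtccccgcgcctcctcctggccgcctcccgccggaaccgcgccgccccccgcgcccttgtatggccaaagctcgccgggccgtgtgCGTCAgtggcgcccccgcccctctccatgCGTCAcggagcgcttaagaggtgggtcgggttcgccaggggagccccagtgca
Dusp1: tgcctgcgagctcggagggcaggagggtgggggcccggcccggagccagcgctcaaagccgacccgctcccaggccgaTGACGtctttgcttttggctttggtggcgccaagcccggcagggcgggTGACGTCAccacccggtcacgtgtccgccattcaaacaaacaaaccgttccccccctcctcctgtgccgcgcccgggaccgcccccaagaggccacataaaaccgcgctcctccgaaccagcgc
Egr2: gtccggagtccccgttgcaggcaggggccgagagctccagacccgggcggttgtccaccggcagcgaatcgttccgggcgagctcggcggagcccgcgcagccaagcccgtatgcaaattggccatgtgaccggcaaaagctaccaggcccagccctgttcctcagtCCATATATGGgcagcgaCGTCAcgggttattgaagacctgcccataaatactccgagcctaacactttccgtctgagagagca
The Nr4a1 window held 4 TGACG matches, at 246, 226, 82 and 53 bases upstream of the start. Among 33469 promoter windows of the same length, 18.2% held at least 1 TGACG match on either strand and 3.98% held 2 or more. Dusp1 held 3 TGACG matches, 2 of which overlap as the palindrome TGACGTCA, present in 1.59% of windows. Egr2 held 1 CArG box and 1 TGACG match. Junb held 1 TGACG match, and Egr1 held 2 CArG boxes and 2 TGACG matches. A CArG box was present in 1.5% of all windows, and 2 or more in 0.0209%. A match describes the letters only, and binding was not measured.

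Library totals ran from 25255006 to 50828295 counts with a median of 34343301. Of the 240 study libraries, 9 stood apart from their tissue, with a median correlation under 0.97 to its other libraries. Of these, 2 came from 1 Q130 male of 6 months: its library labelled striatum was nearest to the hippocampus (r = 0.986) and its library labelled hippocampus nearest to the striatum (r = 0.983). A check used 43 genes whose level followed the animal across cortex, hippocampus and cerebellum, chosen without the striatal libraries. It placed all 60 study striatal libraries closest to the cortex of their own animal. Only 2 of the 12 repeat libraries were closest to the first library of the animal on their label. For this the repeats, all male, were centred on their own median, and the first libraries on the median of both sexes in batch 1. The result for the 60 study libraries used 1 way of centring throughout and so does not cover this setting. How far the labels of the repeats hold was not tested further, and repeat libraries are given by label only. The counts of 2 libraries of a group always differed by more than counting noise, with a lowest ratio of 2.51. The marker lists for cell types were not used here, because the reference table does not pair the identifiers of the files with symbols, and no gene other than the 7 is named by symbol.

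The 7 genes varied together between animals of a group. After removal of the mean of each genotype, age and sex group, the median Pearson r over all pairs of genes was 0.899 in cortex (60 libraries), 0.784 in hippocampus, 0.713 in striatum and 0.375 in cerebellum. These correlations decided which genes were kept and are a description over libraries that share batches, and carry no test. In cortex the weakest pair had r = 0.786 and the strongest, Egr1 with Egr2, r = 0.936. Arc and Nr4a1, the synaptic effector and the nuclear receptor, formed the closest pair in striatum (r = 0.923) and in hippocampus (r = 0.909). Junb followed the others least in all 3 forebrain tissues, with a median r of 0.555 in striatum, 0.813 in cortex and 0.67 in hippocampus.

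In cerebellum the set split. Fos, Dusp1 and Nr4a1 kept a close relation, with r = 0.942 for Fos with Dusp1, 0.928 for Fos with Nr4a1 and 0.882 for Nr4a1 with Dusp1. Egr1 and Junb followed them at r = 0.537 to 0.713. Arc had a median r of 0.137 with the other genes and Egr2 of 0.0138, both under the limit of 0.3 that would have removed a gene had it been missed in 2 tissues. Without Arc and Egr2 the median over pairs in cerebellum was 0.692. Leaving out the libraries that stood apart gave medians of 0.757 in striatum, 0.922 in cortex, 0.801 in hippocampus and 0.346 in cerebellum.

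**Figure D1:**
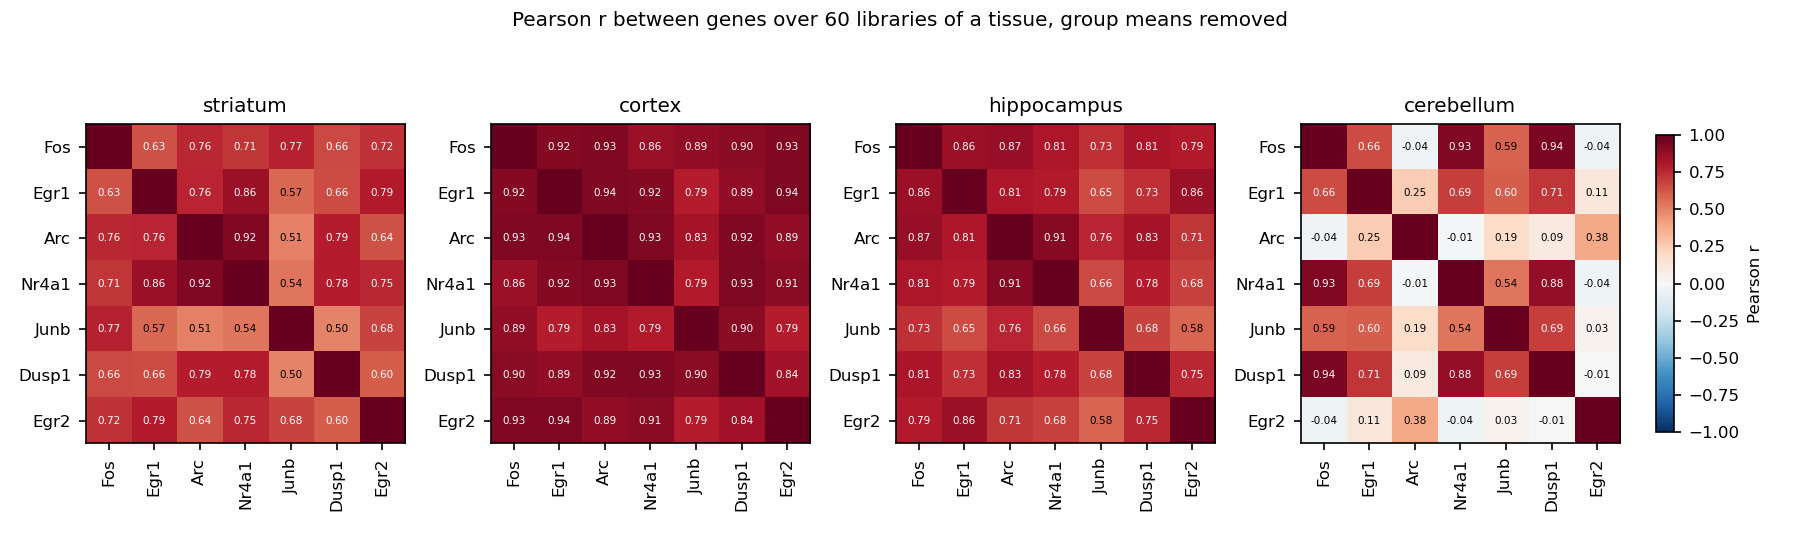
Each square is the Pearson r of a pair of genes over 60 libraries of the tissue named above the panel, on log2 CPM (counts scaled to library size) with the mean of each genotype, age and sex group removed, and the colour bar runs from -1 to 1. All pairs in striatum, cortex and hippocampus have r of at least 0.499, while the rows of Arc and Egr2 in cerebellum lie between -0.0436 and 0.375.

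The genes differed in where they were most abundant. On the TPM scale, which allows for gene length, the cortex held mean levels of 127 ± 40.9 (SD over 60 libraries) for Egr1, 127 ± 60.2 for Arc, 76.4 ± 31.3 for Nr4a1, 62.3 ± 26.4 for Junb, 60.2 ± 22 for Dusp1, 34.1 ± 16.3 for Fos and 11.2 ± 6.19 for Egr2. The cerebellum had another order, with Dusp1 at 36.5 ± 13.6, Fos at 32.9 ± 27.9 and Nr4a1 at 26.7 ± 17.3 above Egr1 at 19 ± 5.7, Arc at 13.7 ± 1.87, Junb at 12.8 ± 3.87 and Egr2 at 0.0888 ± 0.0587. Fos and Dusp1 thus stood near the bottom of the set in cortex and at the top in cerebellum. The remaining levels are in CPM, counts scaled to the size of each library, after scaling by the trimmed mean of M values (TMM), and compare samples within a gene only.

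The AP-1 component Fos ran from 5.24 to 67.8 CPM in cortex (median 28.6, 60 libraries), from 1.82 to 87.3 in cerebellum (median 18.7), from 2.11 to 19.3 in striatum (median 6.7) and from 2.8 to 16.1 in hippocampus (median 6.6). All 4 ranges overlapped. In the fit with the animal as a block, cortex exceeded striatum by 1.76 ± 0.15 (SE, log2) at 2 months, 2.13 ± 0.16 at 6 months and 2.02 ± 0.12 at 12 months (edgeR adjusted p = 9.38e-17, 1.47e-18 and 1.94e-23). Striatum and hippocampus differed by -0.00 ± 0.15 at 2 months, with a 95% interval from -0.31 to 0.30. The excess of cortex over cerebellum was 0.70 ± 0.14 at 2 months and 0.64 ± 0.15 at 6 months (edgeR adjusted p = 8.24e-06 and 0.000163), and 0.18 ± 0.11 at 12 months (edgeR adjusted p = 0.125). Whether that difference itself changed with age was not tested.

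Its partner Junb ran from 16 to 135 CPM in cortex (median 57.4), 19.4 to 64.1 in striatum (median 36.4), 13.5 to 57.4 in hippocampus (median 33.2) and 5.65 to 20.9 in cerebellum (median 9.81). Cortex exceeded striatum least for this gene, by 0.38 ± 0.10 on the log2 scale at 2 months (edgeR adjusted p = 0.000421).

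Egr1, a zinc finger factor, ran from 86.1 to 395 CPM in cortex (median 222), 45.9 to 135 in striatum (median 79.8), 49.1 to 118 in hippocampus (median 73.8) and 17.4 to 63.7 in cerebellum (median 25.8). The libraries of cortex and cerebellum did not overlap. Cortex exceeded cerebellum by 3.02 ± 0.09 (SE, log2) at 2 months (edgeR adjusted p = 3.08e-38). Striatum lay above hippocampus at 2 months, by 0.25 ± 0.09 (edgeR adjusted p = 0.00747), and differed by 0.10 ± 0.08 and 0.06 ± 0.08 at 6 and 12 months, which did not pass the test.

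Its relative Egr2 showed the widest contrast between tissues. It ran from 2.6 to 44 CPM in cortex (median 19.5), 0.971 to 17.7 in striatum (median 6), 1.31 to 8.11 in hippocampus (median 3.22), and 0 to 0.419 in cerebellum (median 0.118). Cerebellar libraries held 0 to 14 counts of this gene, and the ranges of cerebellum and of each other tissue did not overlap. At 2 months striatum exceeded hippocampus by 0.90 ± 0.15 on the log2 scale (edgeR adjusted p = 1.83e-07). In cerebellum Egr2 did not pass the filter on low counts in the comparisons of genotype, age and sex and was not tested there.

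The synaptic gene Arc ran from 26.7 to 410 CPM in cortex (median 208), 50.1 to 197 in hippocampus (median 96.1), 27 to 188 in striatum (median 83.7) and 14.6 to 24.4 in cerebellum (median 18.5). All cerebellar libraries lay below all others. The spread in cerebellum was small, with the highest library 1.67 times the lowest against 15.3 times in cortex. Hippocampus exceeded striatum at 12 months by 0.46 ± 0.13 (SE, log2, edgeR adjusted p = 0.00162), and the same difference was 0.03 ± 0.14 at 2 months and 0.19 ± 0.12 at 6 months, which did not pass the test.

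Nr4a1, the orphan nuclear receptor, ran from 28.9 to 184 CPM in cortex (median 100.3), 21.7 to 79.6 in hippocampus (median 46.1), 13.7 to 89.2 in striatum (median 45) and 7.75 to 108 in cerebellum (median 26.1). Striatum and hippocampus did not differ beyond the threshold at any age, with differences of 0.03 ± 0.09, -0.07 ± 0.11 and -0.23 ± 0.11 (SE, log2) at 2, 6 and 12 months.

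Dusp1, the phosphatase, ran from 22.9 to 127 CPM in cortex (median 61), 14.6 to 67.1 in cerebellum (median 30.8), 11.3 to 37.2 in striatum (median 21.7) and 7.57 to 31.6 in hippocampus (median 15.7). Each neighbouring pair of tissues in this order differed at all 3 ages, as it also did for Egr2 in its own order. Cerebellum exceeded striatum by 0.49 ± 0.07 (SE, log2) at 2 months (edgeR adjusted p = 7.76e-09) and striatum exceeded hippocampus by 0.52 ± 0.07 (edgeR adjusted p = 3.32e-09).

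Over 3 ages and 6 pairs of tissues, 112 of the 126 differences passed edgeR's test. Of all genes at 2 months, 79.7% were called between striatum and cortex, 76.8% between striatum and hippocampus, 84.8% between striatum and cerebellum, 68.8% between cortex and hippocampus, 82.1% between cortex and cerebellum and 82.5% between hippocampus and cerebellum. In the same order the shares were 77.2%, 72.6%, 84.3%, 63.8%, 80.1% and 81.4% at 6 months, and 77.6%, 74.9%, 84.2%, 66.9%, 81.6% and 81.7% at 12 months. For striatum with hippocampus 3, 2 and 3 of the 7 genes were called at 2, 6 and 12 months, below the share of all genes. In the other pairs all 7 were called at each age, except for 6 between cortex and cerebellum at 12 months. A call between tissues is common among all genes, so these counts are read against the shares above. Fos and Dusp1 were higher in cerebellum than in striatum and in hippocampus at each age, while the other 5 were lower. Each of the 112 calls was repeated with RLE scaling, with limma-voom and without the libraries that stood apart. None of the 336 results lost the call or turned its sign. Differences that were not called were not followed in this way. The 6-month counts for striatum with hippocampus include the 2 libraries of the Q130 male that were nearest to the other tissue.

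**Figure D2:**
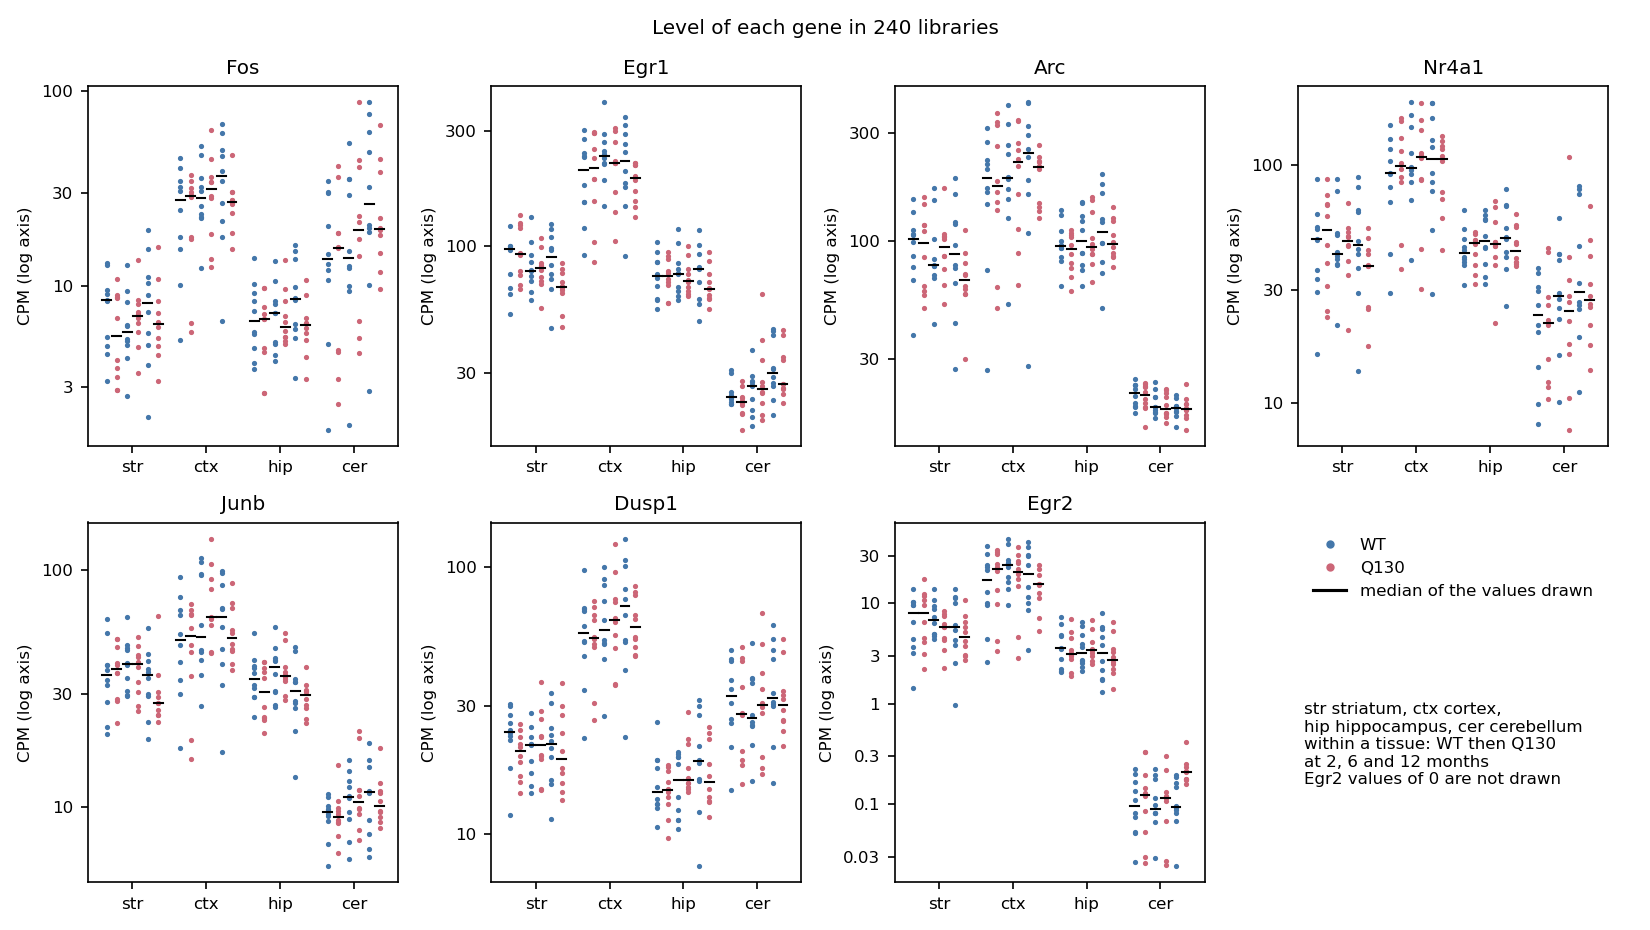
Each point is 1 library and gives the level of the gene named above the panel in CPM on a log axis, by tissue, with WT in blue and Q130 in red at 2, 6 and 12 months from left to right, and a line at the median of the points drawn (10 per group, fewer for Egr2 in cerebellum, where values of 0 are left out). The median over 60 libraries is highest in cortex for each of the 7 genes and lowest in cerebellum for Egr1, Arc, Nr4a1, Junb and Egr2, while the highest Fos library is cerebellar (87.3 CPM, against 67.8 for the highest of cortex).

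Animals of 1 group spread more widely in most of these genes than in the median gene. The biological coefficient of variation of edgeR's fit was 0.767 for Fos in cerebellum, above 99% of the 15786 genes tested, against a median of 0.117 over all of them. The same measure was 0.536 for Nr4a1 in cerebellum, 0.601 for Egr2 and 0.505 for Arc in cortex, and 0.519 for Egr2 and 0.443 for Fos in striatum. In hippocampus the values ran from 0.184 for Egr1 to 0.406 for Egr2, above a median of 0.113 over all genes. The exception was Arc in cerebellum, at 0.114 and percentile 48.3 among genes. Among WT animals of 12 months, Fos in cerebellum ran from 2.88 to 87.2 CPM, 30.3 times, with a median of 26.3.

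Fos, Nr4a1 and Dusp1 levels followed the animal across all 4 tissues. Across the 60 animals, with group means removed, Fos correlated between all 6 pairs of tissues, from r = 0.763 (rho = 0.745) for hippocampus with cerebellum to r = 0.884 (rho = 0.837) for cortex with cerebellum. The permutation p was 1e-05 at each, the smallest that 100000 resamples can give. Nr4a1 followed with r from 0.655 to 0.876 and Dusp1 with r from 0.598 to 0.817, and again all 6 permutation p-values of each were 1e-05. The median r over all genes was 0.216 for striatum with cortex and between -0.0755 and 0.0604 for the other pairs.

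Of the 42 relations (7 genes by 6 pairs of tissues), 36 had a permutation p under 0.05 and all 36 were positive. The permutations did not allow for the removed group means, so their p-values are somewhat too small. This matters near 0.05, as for Egr1 in striatum with cerebellum and Junb in hippocampus with cerebellum (permutation p = 0.0368 each). With Pearson's p, which allowed for those means, adjusted over all 14721 genes tested at each pair, 32 were called. The share of all genes called positive was 33.5% for striatum with cortex, 2.83% for striatum with hippocampus, 2.3% for striatum with cerebellum, 2.91% for cortex with hippocampus, 2.47% for cortex with cerebellum and 2.57% for hippocampus with cerebellum. For striatum with hippocampus 1750 genes were called in either direction, of which 416 were positive. The 2 libraries of the Q130 male of 6 months that were nearest to the other tissue were kept, and their part in this was not tested. All 21 relations among striatum, cortex and hippocampus were called. The share called for striatum with cortex is high among all genes, and the 7 calls there are read against it.

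The relations with the cerebellum divided the genes. Fos, Nr4a1 and Dusp1 were called in all 3. Egr1 was called with hippocampus (r = 0.486, rho = 0.482, permutation p = 5e-05), and not with striatum (r = 0.268, rho = 0.248, permutation p = 0.0368 and 0.056 for rho) or cortex (r = 0.345, rho = 0.384, permutation p = 0.00683) once adjusted over all genes. Junb was called with cortex (r = 0.48, rho = 0.483, permutation p = 0.00014) alone of the 3. Arc had r = -0.108 with striatum, -0.183 with cortex and -0.05 with hippocampus, and Egr2, near its detection limit in cerebellum, had r of 0.007 to 0.085.

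Most of these relations were seen within each sequencing batch. Fos had r of 0.775 to 0.884 within batch 1 and of 0.734 to 0.884 within batch 2, Nr4a1 of 0.664 to 0.894 and 0.544 to 0.871, and Dusp1 of 0.599 to 0.867 and 0.477 to 0.849. Within batch 1 (40 animals of 2 and 6 months) 33 of 42 had a permutation p under 0.05, all positive, and within batch 2 (20 animals of 12 months) 34 had, of which 3 were negative. The 3 were Arc in cerebellum against striatum (r = -0.627, rho = -0.588, permutation p = 0.00313), cortex (r = -0.502, rho = -0.621, permutation p = 0.0298) and hippocampus (r = -0.525, rho = -0.489, permutation p = 0.0171). In batch 1 the same 3 relations of Arc had r of 0.119, -0.069 and 0.142. The difference between batches was not tested. These permutation p-values too did not allow for the removed group means and are somewhat too small. Leaving out the 2 animals farthest from the median gave 35 relations under 0.05, and leaving out the libraries that stood apart gave 36. Library depth moved little with the genes: the r of their mean level with the log2 library total was -0.127 in striatum, -0.092 in cortex, 0.068 in hippocampus and 0.043 in cerebellum.

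The animals with the lowest and the highest mean deviation over genes and tissues (-0.92 and 0.85 on the log2 scale) show the size of the pattern. In a WT male of 12 months Fos was at 2.11 CPM in striatum, 6.62 in cortex, 3.36 in hippocampus and 2.88 in cerebellum, and Arc at 27 in striatum and 27.9 in cortex. In a WT female of 6 months Fos was at 12.8 CPM in striatum, 46.9 in cortex, 13.4 in hippocampus and 54.3 in cerebellum, and Arc at 172 in striatum and 400 in cortex. Arc in cerebellum was at 20.1 CPM in the first animal and 23.6 in the second. Both carried the same genotype, and these 2 were picked as extremes after their values were seen.

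**Figure D3:**
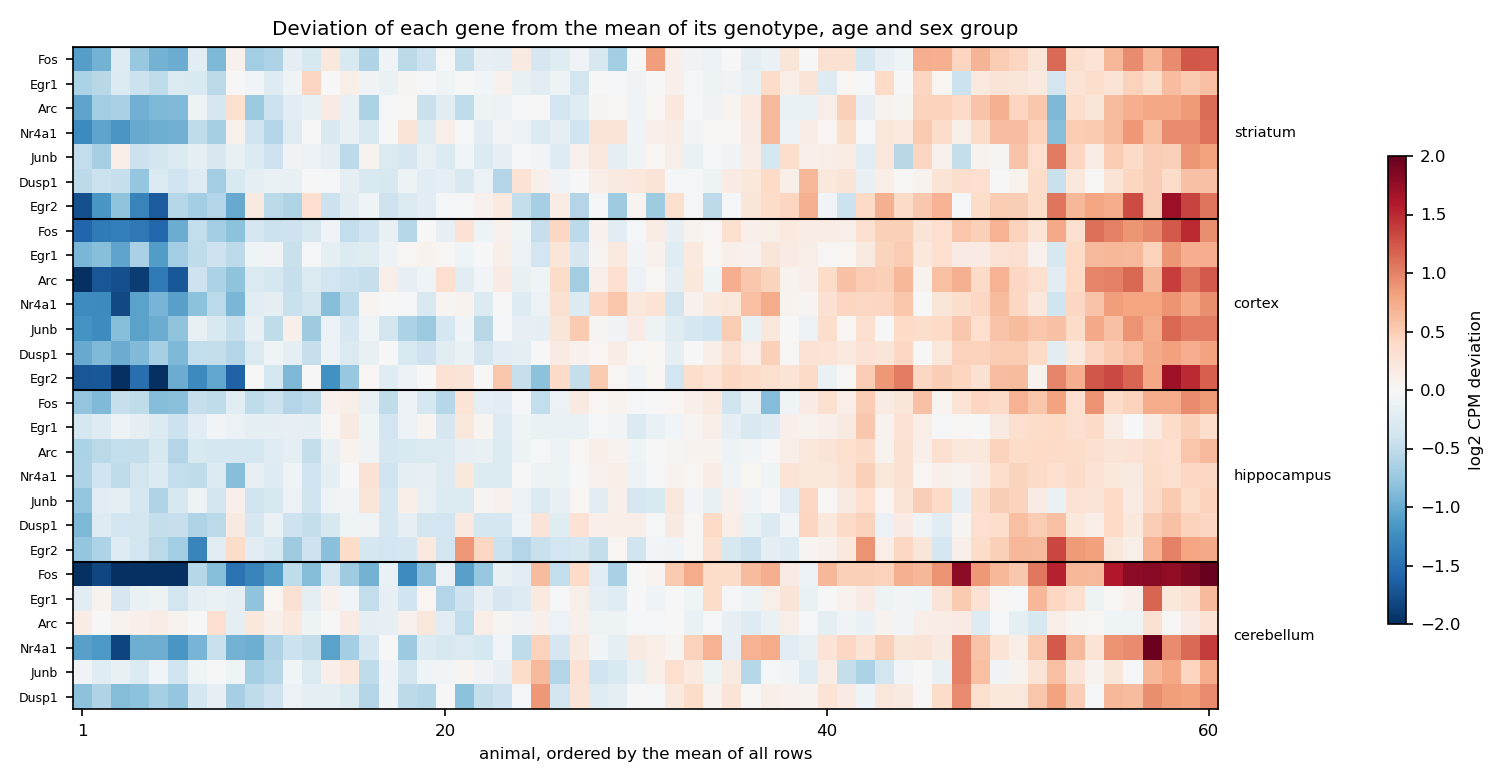
Each column is 1 of the 60 animals, ordered by its mean over all rows, and each row 1 gene in the tissue named at the right (Egr2 in cerebellum is left out); colour gives the deviation of log2 CPM from the mean of the animal's genotype, age and sex group, cut at -2 and 2. The order of the columns itself places low animals at the left and high animals at the right, so nothing is read from that gradient, and the row of Arc in cerebellum, whose levels ran from 14.6 to 24.4 CPM, stays pale.

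**Figure D4:**
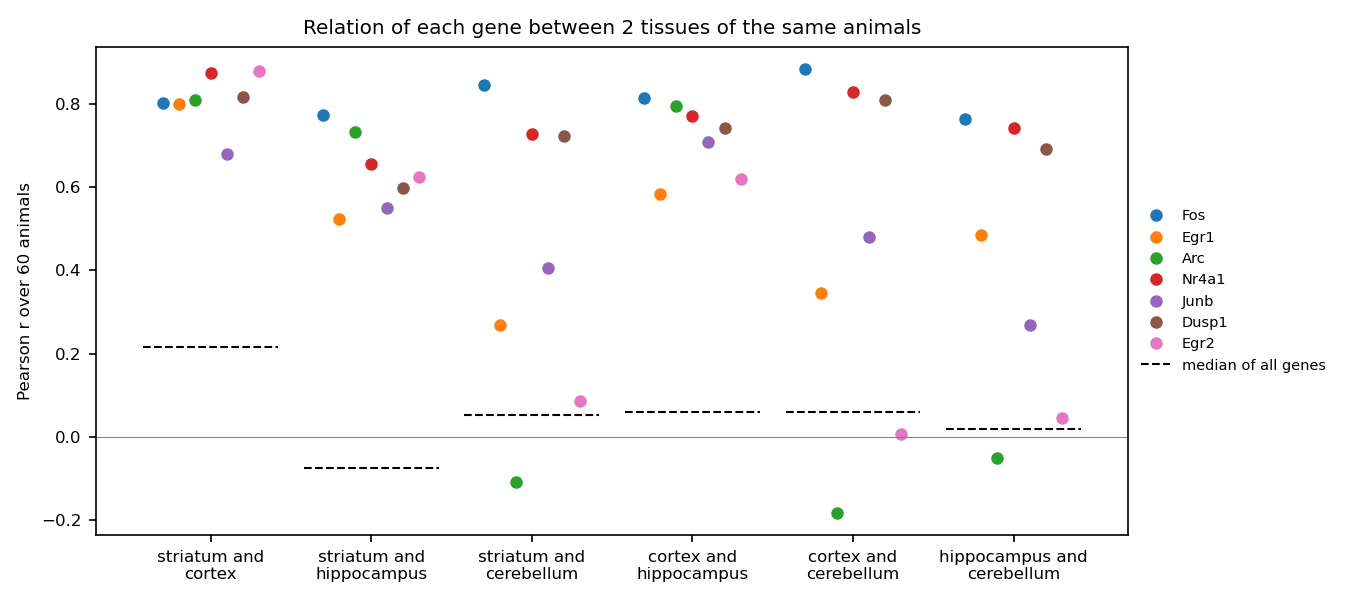
Points give the Pearson r of each gene over 60 animals between the 2 tissues named below, with group means removed, and dashed lines the median r over all genes. All points of the 3 pairs without cerebellum lie at or above 0.524, and in the 3 pairs with cerebellum Fos, Nr4a1 and Dusp1 lie at or above 0.693 while Arc lies at or below -0.05.

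The question of the study's design, whether the Q130 allele changes expression, was put to each gene at each age. None of the 7 passed edgeR's test in any of the 12 comparisons of 10 Q130 with 10 WT libraries, where 81 estimates were possible. In striatum 2.64%, 0% and 0% of all genes tested were called at 2, 6 and 12 months. The shares were 0.00636%, 0% and 0% in cortex, 0%, 0% and 0% in hippocampus, and 0%, 0.0709% and 1.48% in cerebellum. At 6 months the shares in striatum and hippocampus include the Q130 male whose libraries were nearest to the other tissue. Shares without this male are not given. Of the 81 estimates 1 had an unadjusted p under 0.05, against 7.82% of all genes over the 12 comparisons, and limma-voom and DESeq2 also called none of them.

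The 1 estimate was Egr1 in striatum at 12 months. WT libraries ran from 45.9 to 124 CPM with a median of 90, and Q130 libraries from 46.6 to 85.2 with a median of 68, so that the ranges overlapped. The log2 fold change was -0.36, with a 95% interval from -0.66 to -0.07 (edgeR p = 0.0177, adjusted p = 0.496, with 9.81% of all genes at an unadjusted p under 0.05), and -0.32 (p = 0.0635, adjusted p = 0.413) without the 2 libraries of that group that stood apart. In the same comparison Arc did not pass, at -0.40 (interval -0.88 to 0.08), and Nr4a1 at -0.41 (interval -0.91 to 0.09). Fos in striatum at 2 months, with a median of 8.39 CPM in WT and 5.5 in Q130 libraries, gave -0.35 (interval -0.97 to 0.27).

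Over single ages the estimates lay between -0.46 and 0.30 on the log2 scale. At 12 months 25 of 27 estimates were below 0, against 17 of 27 at 2 months and 15 of 27 at 6 months. The genes and tissues of an animal move together, as shown above, so these are not 27 separate observations. Of the 30 first parts of the animal identifiers 6 held both genotypes, but at 12 months each held a single genotype, and at 6 months most did. Genotype at 6 and 12 months could thus not be fully separated from the first part, whose meaning the labels do not give. A limma-voom fit with the first part as a random block called 0 of the 7 genes at any single age. The interaction of genotype and age passed for 0 of the 7 genes in every tissue, where 0.284% of genes were called in striatum and 0% in each of the others, and 1 estimate of a gene had an unadjusted p under 0.05 (Egr1 in striatum, p = 0.029, where 17.6% of all genes had).

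Taking the 3 ages together (30 against 30 libraries), no gene was called, where 0.0125% of all genes were called in striatum, 0.00626% in cortex, 0.0125% in hippocampus and 0.127% in cerebellum. Estimates ran from -0.23 to 0.04 and the lowest unadjusted p was 0.11. For 25 of the 27 estimates the 95% interval lay within a 1.5-fold change in both directions. The other 2 were Fos in cerebellum (interval -0.69 to 0.50) and Egr2 in cortex (-0.63 to 0.29). The intervals leave room for any difference that lies inside them, and the power of the test with this number of animals was not estimated.

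Between 2 and 6 months, both in batch 1, none of the genes passed edgeR's test in any tissue, although 22.5% of all genes were called in striatum, 14.6% in cortex, 13.4% in hippocampus and 20.7% in cerebellum. The count of genes at an unadjusted p under 0.05 was 0 in striatum, 1 in cortex, 0 in hippocampus and 3 in cerebellum, where 33.8%, 27.1%, 28.1% and 32.6% of all genes had, and limma-voom called none. The nearest was Junb in cerebellum, higher at 6 months by 0.30 (interval 0.05 to 0.54, edgeR adjusted p = 0.0757). Arc in cerebellum was lower by -0.12 (interval -0.23 to -0.00, adjusted p = 0.139). Without the 2 cerebellar libraries of 2 months that stood apart, Junb (0.34, edgeR adjusted p = 0.039) and Arc (-0.14, adjusted p = 0.0365) were called, beside 27% of all genes.

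Age 12 months and sequencing batch 2 cannot be told apart in the study libraries. Within batch 2, 12-month striatal males were compared with the repeat libraries labelled 2 and 6 months, and none of the genes was called, beside 4.71% of all genes at 2 months and 5.17% at 6 months. Against all repeat libraries together, a comparison chosen after seeing the data because of the labels, 22.4% of genes were called and none of the 7. Arc came nearest, at -0.57 (interval -1.02 to -0.13, edgeR adjusted p = 0.0593), and had the only unadjusted p under 0.05, against 36.4% of all genes.

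Repeat libraries were compared with the first libraries of the same 12 labels, and 1 of the 7 genes, Junb, was called, lower in the repeats by 0.48 on the log2 scale (SE 0.11, edgeR adjusted p = 0.0199), where 3.87% of all genes were called and 16% had an unadjusted p under 0.05. It was -0.47 (adjusted p = 0.0302) with no animal block. Which column of a pair is the repeat was read from the form of its name, and exchanging them turns the sign. Over the 12 labels the first and repeat levels of a gene had r from -0.369 for Fos (rho = -0.483) to 0.558 for Egr1 (rho = 0.622), with permutation p of r between 0.0606 and 0.99. For Egr1 the permutation p was 0.0606 for r and 0.0354 for rho, or 0.424 and 0.248 adjusted over the 7 genes, and for Fos 0.239 and 0.114. Without the 2 labels farthest from the median, r was -0.738 for Fos (permutation p = 0.0166), -0.728 for Dusp1 (permutation p = 0.0105) and 0.344 for Egr1 (permutation p = 0.328). Adjusted over the 7 genes, the permutation p was 0.0583 for both Fos and Dusp1, so neither passed. No group means were removed for these relations.

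The estimates for males against females were below 0 for all 7 genes in striatum, cortex and hippocampus, but none passed edgeR's test after adjustment (0.599%, 0.552% and 0.479% of all genes were called there). Arc in cortex ran from 50.4 to 410 CPM in 30 females, with a median of 239, and from 26.7 to 329 in 30 males, with a median of 162. The ranges overlapped, and the log2 difference was -0.53 (interval -0.92 to -0.13, edgeR p = 0.00948, adjusted p = 0.195). Dusp1 in striatum had a median of 24.1 CPM in females and 19.6 in males, a difference of -0.30 (interval -0.49 to -0.11, edgeR p = 0.00242, adjusted p = 0.13).

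The estimates of the 7 genes lay between -0.43 and -0.09 in striatum, -0.53 and -0.11 in cortex and -0.37 and -0.20 in hippocampus. With edgeR 6, 5 and 7 of the 7 had an unadjusted p under 0.05 there, where 15.4%, 17.9% and 9.3% of all genes had. The genes covary, so these are not separate observations. In cerebellum 0 of the 6 genes tested had an unadjusted p under 0.05, with Fos at -0.56 (interval -1.17 to 0.06) and Arc at 0.03, and 1.84% of all genes were called. There 13.4% of all genes had an unadjusted p under 0.05. limma-voom called none of the genes in any tissue.

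Sex could not be fully separated from the first part of the animal identifiers, whose meaning the labels do not give. There are 30 first parts, each held by up to 4 animals, and 0 of them hold both sexes, while the fits above take animals as independent. A limma-voom fit with the first part as a random block, added after seeing the data, called 0 of the genes in each tissue. It gave an unadjusted p under 0.05 for 6 of the 7 genes in striatum, 3 in cortex and 6 in hippocampus, and for 0 of 6 in cerebellum, against 13.9%, 18.5%, 8.67% and 13.1% of all genes. Without the block limma-voom gave 5, 2, 6 and 0, so that cortex, with 5 by edgeR, was the tissue where the count depended most on the tool.

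**Figure D5:**
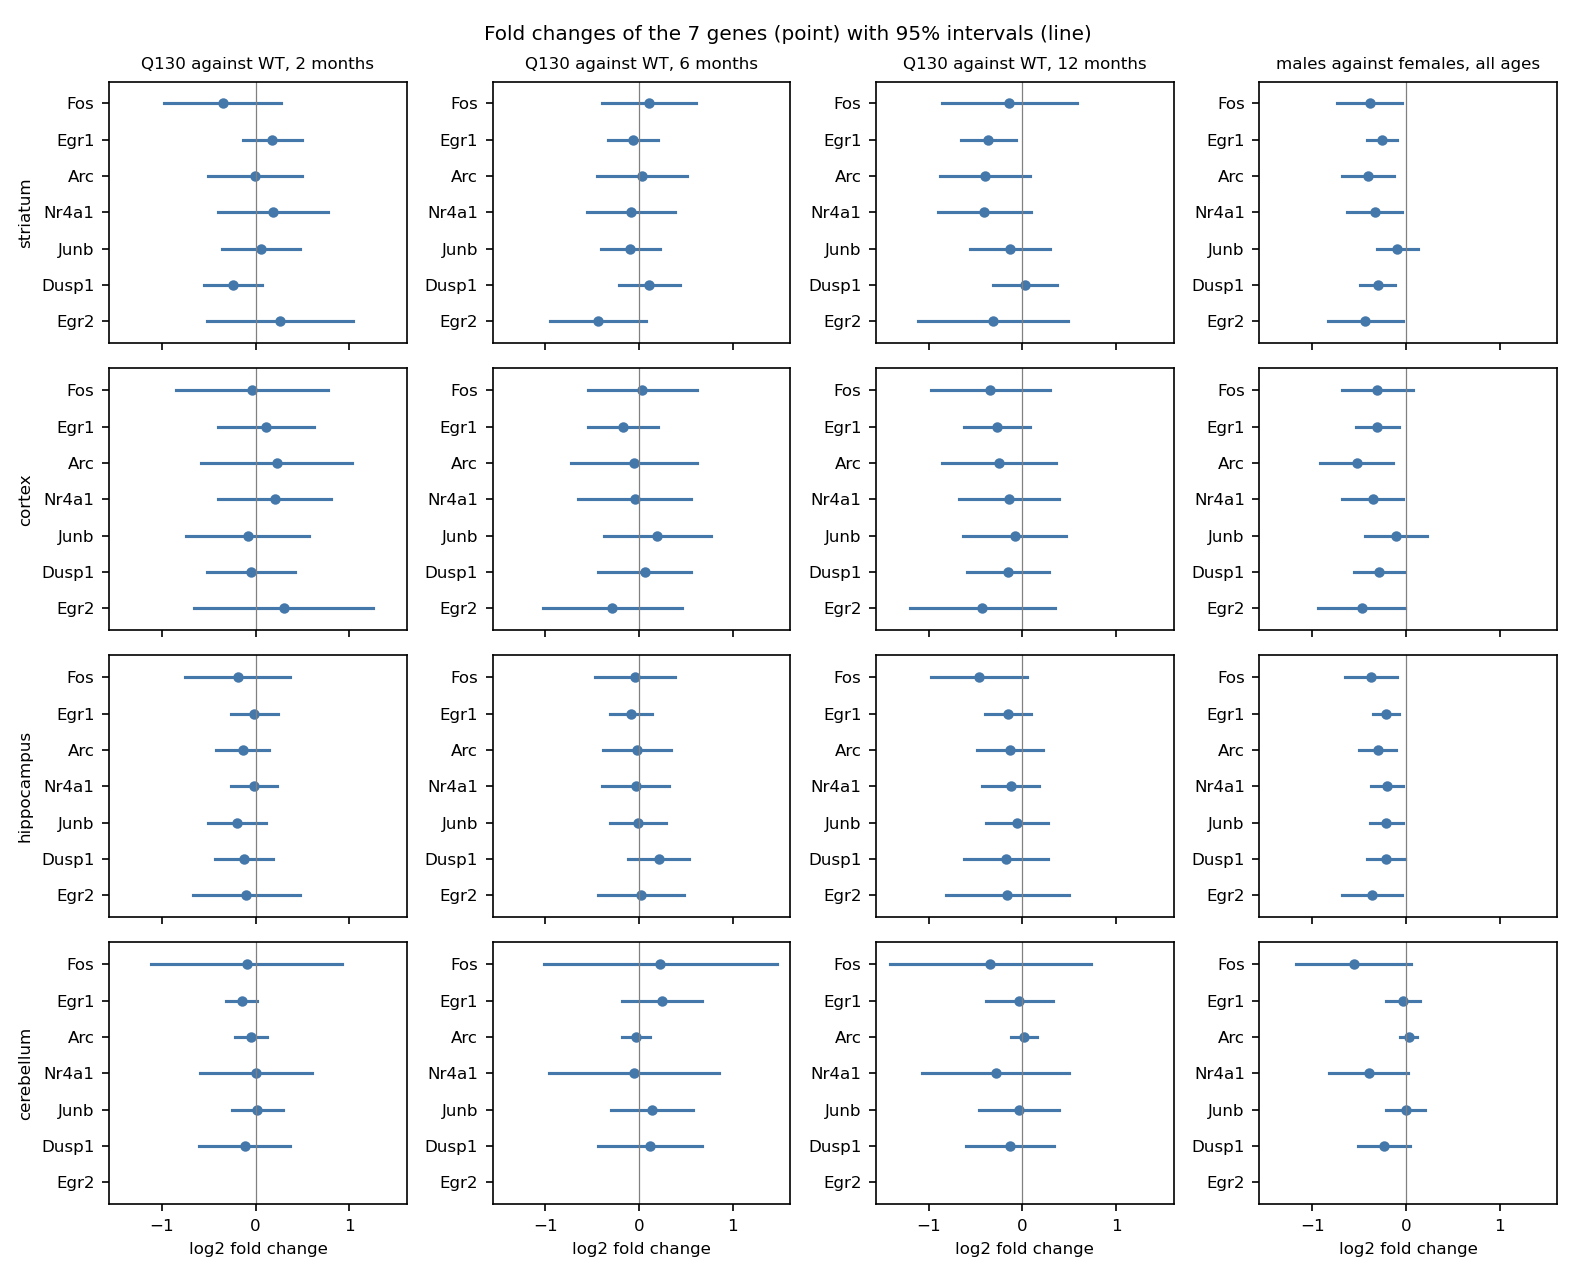
Points give log2 fold changes and lines their 95% intervals for each gene, by tissue in rows, for Q130 against WT at 2, 6 and 12 months (10 against 10 libraries) and for males against females over all ages (30 against 30); Egr2 was not tested in cerebellum. All genotype intervals but that of Egr1 in striatum at 12 months include 0, and the points for males lie below 0 for all 7 genes in striatum, cortex and hippocampus.

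Few other genes had a like pattern. Of 14714 other genes, the share with r over 0.5 to the mean of the 7 was 0.102% in striatum, 0.469% in cortex, 0.17% in hippocampus and 0.313% in cerebellum, and 9 genes passed in all 4. The closest was ENSRNOG00000046667, with a mean r over the 4 tissues of 0.76 and r of 0.749 in striatum, 0.763 in cortex, 0.718 in hippocampus and 0.807 in cerebellum (60 libraries each). The next was ENSRNOG00000001189, with a mean r of 0.73.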

How the data were processed

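RNA of flash-frozen striatum, cortex, hippocampus and cerebellum was extracted as total RNA, and enriched subfractions were made into Illumina libraries, per the labels' protocols. The authors deposited estimated counts per gene, of which 8.19% were not whole and which were rounded to whole numbers here. A second table, named for FPKM in the deposited set, had columns that each sum to the same total, so its values were read as TPM as deposited by the authors. For aligner, counter, genome build and strand setting: not given in the sources used here. Columns of per-sample values not used numbered 0.

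Levels are CPM after TMM scaling, and log2 CPM used a prior count of 2. Comparisons used edgeR's quasi-likelihood test over all genes that passed filterByExpr, with sex as a covariate for genotype and the animal as a block between tissues, and Benjamini-Hochberg adjustment with a threshold of 0.05. Intervals are at 95%. Relations across animals used Pearson's r and Spearman's rho with 100000 permutations. Alternatives were RLE scaling, limma-voom, DESeq2, no filter on low counts, log2(TPM + 1), a fit over 60 libraries and a replicate block. Others left out single libraries or the libraries that stand apart. The first part of the animal identifier was also used as a random block, for genotype and for sex (for sex added after seeing the data). The scripts were tested on simulated data. Replicates are animals of a group, as the labels number them.

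The named genes are the 7 listed by identifier and the genes most like them by mean r over the 4 tissues. The members and lists were chosen with earlier results of these data known. The lists of related genes and of cell type markers, fixed by symbol, matched 0 identifiers in the reference gene table and were not used here. Tools were R 4.3.3, edgeR 4.0.16, limma 3.58.1, DESeq2 1.42.0, Python 3.11.15, NumPy 2.4.6, SciPy 1.17.1 and pandas 2.3.3.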

Additional observations from a re-analysis of the deposited data

Results flagged for a closer look

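Of 168 sets of 10 libraries (1 gene in 1 group), 10 held a highest library far from the rest. The gap to its neighbour was larger than Dixon's 95% critical share of the range. Chance flags about 5% of sets when values are normal, and 10 of 168 is near that share. The rule was applied to CPM without logarithms, and the chance share for such values was not tested. The 10 came from 4 animals. A Q130 female of 6 months gave 5 of them: Fos was at 87.3 CPM in its cerebellum against 44.1 in the next library, Egr1 at 63.7 against 40.8 and Nr4a1 at 108 against 41.3, while in its striatum Fos was at 13.6 against 8.42 and Arc at 171 against 106.

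A Q130 male of 12 months gave 3. Fos was at 46.9 CPM in its cortex against 30.1, Junb at 64.1 in its striatum against 36.1 and Junb at 17.8 in its cerebellum against 12.6. Its striatal and cortical libraries are among those that stand apart from their tissue, with a median r of 0.859 and 0.895, and the part of this in the result was not tested. Junb was at 15 CPM in the cerebellum of a Q130 male of 2 months against 10.6, in a library that also stands apart (median r of 0.945). Dusp1 was at 26.1 CPM in the hippocampus of a WT female of 2 months against 18.9.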

How the results depend on the processing

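Of the counts of the 7 genes called, 1 moved under an alternative. A count above 0 was taken as moved only beyond a set ratio, so smaller changes are not listed. Counts between tissues were summed over all pairs of tissues at an age before this. Without the libraries that stand apart, 2 genes (Arc and Junb) were called between 6 and 2 months in cerebellum, against 0 with them. The counts for genotype at single ages stayed at 0 in all 332 alternative fits, and 36 of the 81 estimates changed sign in at least 1 of them, the largest of these being 0.23 in size on the log2 scale. With the replicate block, 0 genes were called in all 12 genotype comparisons. Same-numbered libraries share only a number: 20 of 120 pairs had a correlation of deviations over 0.1, 14 were closest to their own number, and in 0 of 12 comparisons did all pairs exceed it. The scaling factors of RLE differed from those of TMM by a mean of -0.006 to 0.013 on the log2 scale by tissue. With p adjusted over all genes, 32 of 42 relations across tissues were called, against 36 with a permutation p under 0.05, which did not allow for the removed group means. Precision is limited by the spread between animals, and for Egr2 in cerebellum by depth, at 0 to 14 counts.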

Other observations

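Animal identifiers in the labels hold a first part and a number, and the labels do not say what either stands for. In a comparison chosen after seeing the data, 19 pairs of animals numbered 01 and 02 shared a first part and a genotype (9 WT and 10 Q130). The mean of the 7 genes over the 4 tissues was higher in number 02 in 17 of 19 pairs. With edgeR no gene of the 7 was called in any tissue, where 0% of all genes were called, and limma-voom called none. The count at an unadjusted p under 0.05 was 6 in striatum, 7 in cortex, 7 in hippocampus and 5 in cerebellum, against 4.39%, 6.03%, 3.16% and 2.7% of all genes. Fos in cerebellum had the highest estimate, 1.26 on the log2 scale (95% interval 0.54 to 1.97, edgeR p = 0.00169, adjusted p = 1), and Arc in cerebellum the lowest, 0.02. The genes covary within an animal, so these counts are not separate observations.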
